A study of Mus musculus with 6 samples.

Results

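The genes described here are 10 genes of MHC class I antigen presentation, read from bulk RNA-sequencing of macrophages sorted from mouse skin wounds. They are the heavy chains H2-K1, H2-D1 and H2-T23, the light chain B2m, the peptide transport and loading genes Tap1, Tap2 and Tapbp, and the immunoproteasome subunits Psmb8, Psmb9 and Psmb10. Members were chosen by name, as the rows whose gene symbol equals a listed symbol, and all 10 were found among the 15168 genes of the count table. All 10 passed the filter on low counts, and 11878 genes were tested in all. The macrophages were CD45+CD11b+F4/80+CD64+ cells from full-thickness wounds on the back of female C57BL/6J mice, collected on Day 3. The mice were young (12 weeks) or aged (24 months), each carried 2 wounds of 10 mm, and both ages were wild type, with no agent named in the labels. There were 3 samples per age, named sets A, B and C, and the sources used here do not say whether a sample is 1 mouse or a pool. The p-values therefore measure only the spread between these samples, which may be technical.

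MHC class I molecules show peptides from proteins made inside a cell to CD8+ T cells, and non-classical class I molecules such as the product of H2-T23 are also read by natural killer cells. Proteasomes cut the peptides, the TAP transporter moves them into the endoplasmic reticulum, and a loading complex fits them into a heavy chain paired with beta-2-microglobulin. Interferons induce the whole route, and in the immunoproteasome 3 inducible subunits (Psmb8, Psmb9 and Psmb10) take the places of the constitutive Psmb5, Psmb6 and Psmb7.

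All 10 members had a lower mean level in aged Day 3 wound macrophages than in young ones. Of the 10, 5 fell by the test across all genes (H2-T23, B2m, Psmb8, Psmb9 and Psmb10) and 0 rose, using edgeR's quasi-likelihood test with Benjamini-Hochberg adjustment at 0.05. Over all tested genes, 7.97% fell and 9.73% rose by the same rule. At an unadjusted p under 0.05, 6 members were lower and 0 higher, against 16.5% and 18.1% of all tested genes, and DESeq2 and limma-voom with sample quality weights also called 0 members higher. Psmb9 was the 1 member that also passed the rule of more than 2-fold, which 4.20% of tested genes passed downward. The median log2 fold change of the members was -0.62, against -0.02 over all tested genes. The calls rested on the full set of samples. Leaving out young B, young C or aged C gave 0 called members each time, leaving out aged B gave 1 (Psmb9), and leaving out young A or aged A gave 5 and 4. In bulk samples, fewer cells of a type and less RNA per cell cannot be told apart.

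The members took 1.46%, 1.47% and 1.52% of all counts in young A, B and C, and 1.05%, 0.898% and 1.06% in aged A, B and C. The ages did not overlap in this share, most of which was B2m, H2-D1 and H2-K1. The share divides by unscaled totals, while the per-gene comparisons in this paragraph use library sizes scaled by TMM factors. Those factors were 0.991 to 1.11 in young and 0.904 to 0.983 in aged samples, so the gap between ages is narrower with that scaling. For 8 of the 10 members every aged sample lay below every young sample, with H2-D1 and Tap2 as the exceptions, and 19.0% of all tested genes had that arrangement. Aged B was the lowest of the 6 samples for all 10 members. Among the young samples, young A was the lowest for 9 members.

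**Figure D1:**
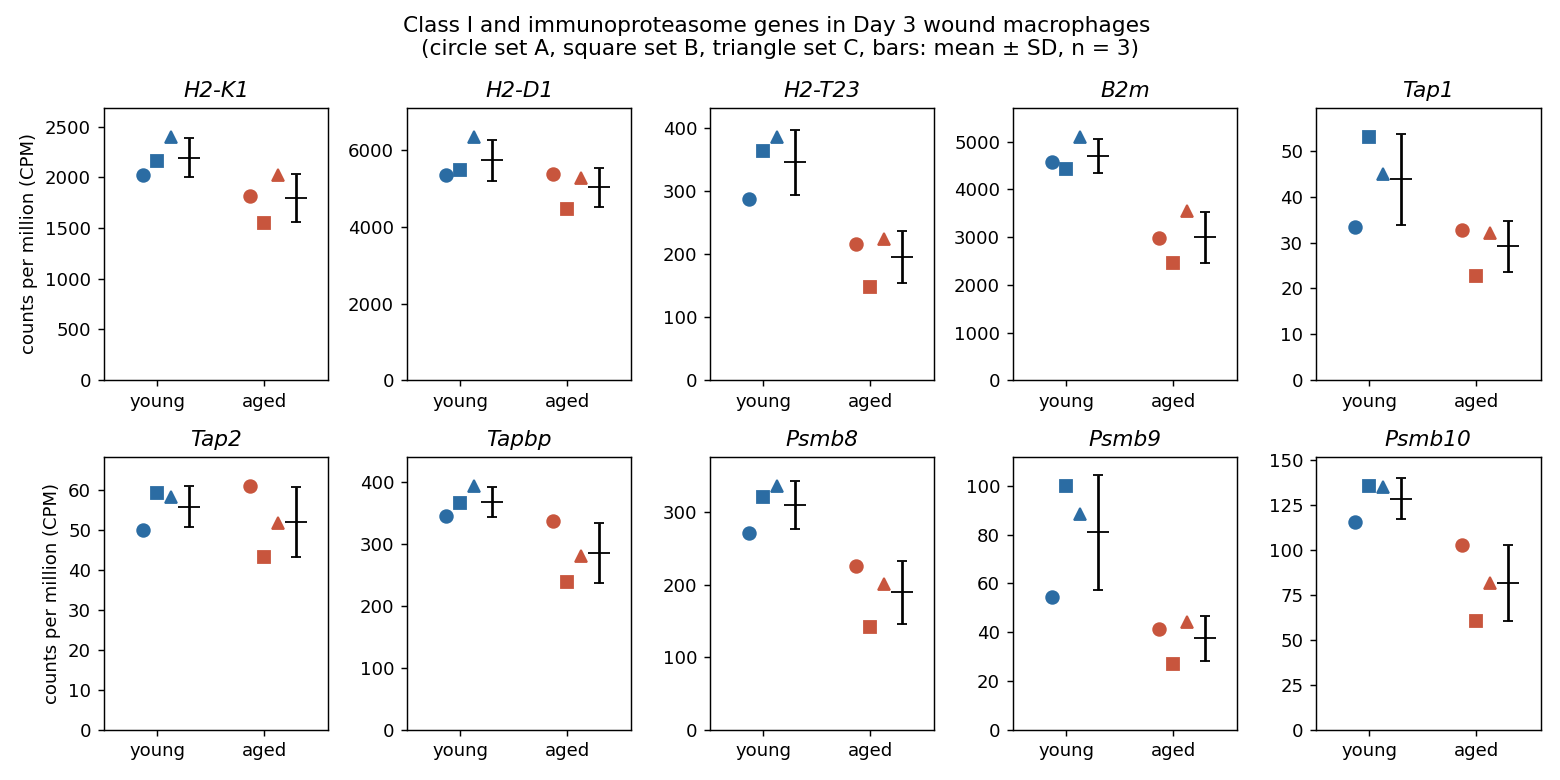
CPM (counts scaled to library size) of each member in every sample, by age, with the mean ± SD (n = 3) beside the points and the marker shape giving the set letter. The aged points lie below the young points in 8 of the 10 panels, H2-D1 and Tap2 overlap, and aged B (the square) is the lowest point of every panel.

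Stretches of member promoters are shown where they hold letters that class I regulators are known to bind. Windows of 250 bases before to 50 bases after a start site came from RefSeq (GRCm38.p6), and 9 of the 10 members had one. Tap2 and Psmb7 had none. Capitals mark the kappa B letters (GGGGA followed directly by TTCCC) in H2-K1 and H2-D1, the X2-box letters TGACGC in H2-K1, the core of the interferon-stimulated response element in H2-T23 (on the opposite strand) and B2m, and the gamma-activated letters TTCNNNGAA in Psmb8.
H2-K1: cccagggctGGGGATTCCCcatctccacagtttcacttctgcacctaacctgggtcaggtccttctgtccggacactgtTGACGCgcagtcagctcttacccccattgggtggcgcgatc
H2-D1: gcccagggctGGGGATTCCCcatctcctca
H2-T23: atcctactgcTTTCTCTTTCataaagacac
B2m: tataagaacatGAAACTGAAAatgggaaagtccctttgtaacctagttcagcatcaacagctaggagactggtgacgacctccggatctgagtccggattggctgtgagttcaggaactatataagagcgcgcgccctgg
Psmb8: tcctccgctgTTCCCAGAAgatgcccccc

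The H2-K1 stretch is chr17:34000348-34000467 on the minus strand and the H2-D1 stretch chr17:35262913-35262942 on the plus strand. The H2-T23 stretch is chr17:36032806-36032835 on the minus strand, the B2m stretch chr2:122147537-122147676 on the plus strand and the Psmb8 stretch chr17:34198088-34198116 on the plus strand. By the gene models of the count table, the H2-D1, H2-T23 and Psmb8 stretches lie inside the gene. These models span chr17:35262730-35267499, chr17:36029773-36032855 and chr17:34197721-34201454. The H2-K1 and B2m stretches lie outside theirs. H2-K1 and H2-D1 shared 107 of 120 bases (89.2%) in the stretch that begins 9 bases before the kappa B letters, and both had 70 bases from the start of the kappa B letters to the start of the X2-box letters. Both strands were searched in 32817 promoters of the same length. The kappa B letters were in 0.107% of them and in 2 of 9 member promoters (H2-K1 and H2-D1), and the X2-box letters in 7.39% and in the same 2. The interferon-stimulated core (GAAA, any 2 bases, GAAA) was in 3.43% of promoters and in 2 of 9 members, H2-T23 and B2m. The gamma-activated letters were in 8.29% and in Psmb8, and neither the 2 constitutive promoters available (Psmb5 and Psmb6) nor those of Tap1, Tapbp, Psmb9 and Psmb10 held any of these 4 motifs. A match describes letters in this window and is not a measured binding site. Only these exact letters were searched, so a promoter without a match may still hold a variant of an element. This applies to H2-K1 and H2-D1, which had no match to the interferon-stimulated core.

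The classical heavy chains H2-K1 and H2-D1 carry peptides to CD8+ T cells. H2-K1 was measured at 2027, 2159 and 2399 CPM (counts scaled to library size) in young A, B and C and at 1813, 1549 and 2023 CPM in aged A, B and C. The highest aged sample, C, lay just under the lowest young sample. The log2 fold change was -0.29 (standard error, SE, 0.18) and did not pass the edgeR test (adjusted p = 0.286). H2-D1 was at 5352, 5488 and 6347 CPM in young A, B and C, and at 5384, 4453 and 5274 CPM in aged A, B and C. Its groups overlapped, since aged A lay above young A. The log2 fold change was -0.19 (SE 0.19, adjusted p = 0.511 by edgeR).

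H2-T23 encodes Qa-1, a non-classical heavy chain that presents leader peptides of other class I molecules to natural killer cell receptors. It was at 288, 364 and 387 CPM in young and at 216, 149 and 224 CPM in aged samples A, B and C. No aged sample reached the lowest young one. It fell from 346 ± 51.4 to 196 ± 41.2 CPM (SD, n = 3), 1.76-fold, with a log2 fold change of -0.82 (SE 0.20, adjusted p = 0.0248 by edgeR). Leaving out 1 sample at a time, the edgeR adjusted p of H2-T23 lay between 0.0136 and 0.11, and it stayed under 0.05 without young A or without aged A. Heavy-chain genes have near-identical relatives in the same locus, and how the deposited counting shared reads between them is not given in the sources used here, so the values of H2-K1, H2-D1 and H2-T23 are uncertain to that extent.

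B2m encodes the light chain that every class I heavy chain needs to reach the cell surface. It was at 4577, 4422 and 5105 CPM in young A, B and C and at 2987, 2462 and 3542 CPM in aged A, B and C. The ages were well apart, with the highest aged sample (C) still below the lowest young one (B). B2m fell from 4701 ± 358 to 2997 ± 540.0 CPM (SD, n = 3), 1.57-fold, with a log2 fold change of -0.65 (SE 0.20, adjusted p = 0.0464 by edgeR). That call was lost whenever any 1 of the 6 samples was left out (edgeR adjusted p from 0.0575 to 0.157).

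Heavy and light chain form 1 molecule, so their counts were also compared within each sample. The ratio of H2-K1 to B2m counts was 0.443, 0.488 and 0.470 in young A, B and C and 0.607, 0.629 and 0.571 in aged A, B and C. The aged ratios were all higher, by 1.29-fold on average (log2 difference 0.37, SE 0.06). The ratio of H2-D1 to B2m was 1.17, 1.24 and 1.24 in young and 1.80, 1.81 and 1.49 in aged A, B and C. These did not overlap either, and the aged ratios were 1.39-fold higher (log2 difference 0.48, SE 0.10). The ratio of H2-T23 to B2m overlapped between ages, at 0.0630, 0.0823 and 0.0758 in young and 0.0723, 0.0605 and 0.0632 in aged samples (log2 difference -0.17, SE 0.14). The two-sided exact permutation test gave p = 0.1 for H2-K1/B2m and H2-D1/B2m, the smallest that 3 samples against 3 allow, and p = 0.3 for H2-T23/B2m. Adjusted over the 3 ratios these were 0.15, 0.15 and 0.3 (exact permutation), so none could pass 0.05 in this design.

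**Figure D2:**
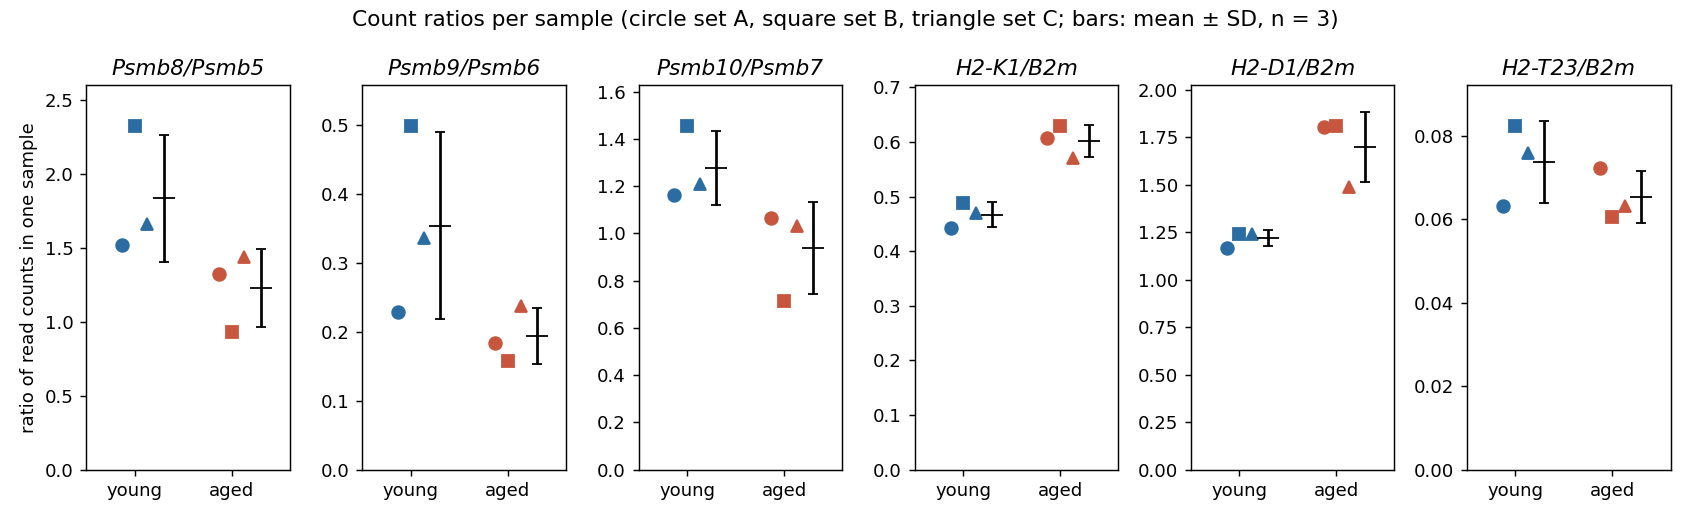
Ratio of the read counts of 2 genes within each sample, for the inducible over the constitutive proteasome subunit (left 3 panels) and for a heavy chain over B2m (right 3 panels), with the mean ± SD (n = 3) beside the points. The aged points are lower in Psmb8/Psmb5 and Psmb10/Psmb7, higher in H2-K1/B2m and H2-D1/B2m, and overlap the young points in Psmb9/Psmb6 and H2-T23/B2m.

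Tap1 and Tap2 encode the chains of the peptide transporter and Tapbp encodes tapasin, which bridges the transporter and empty class I molecules. Tap1 was at 33.3, 53.0 and 44.9 CPM in young A, B and C and at 32.7, 22.8 and 32.0 CPM in aged A, B and C. Young A, at 33.3 CPM, was next to the aged samples. The log2 fold change of Tap1 was -0.58 (SE 0.22) and missed the edgeR threshold (adjusted p = 0.0844), but passed it without young A (0.0298) and in limma-voom with sample quality weights (0.0372).

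Tap2 was at 50.0, 59.3 and 58.2 CPM in young A, B and C and at 60.9, 43.3 and 51.6 CPM in aged A, B and C. The highest of the 6 values was aged A and the lowest aged B. The log2 fold change of -0.10 (SE 0.17) did not pass the edgeR test (adjusted p = 0.707) and turned to 0.025 without aged B. Tapbp was at 345, 366 and 393 CPM in young and at 336, 239 and 280 CPM in aged A, B and C. All aged values were lower, with aged A close to young A. Its log2 fold change was -0.37 (SE 0.18, adjusted p = 0.168 by edgeR), and limma-voom with sample quality weights gave an adjusted p of 0.0404.

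All 3 inducible catalytic subunits of the immunoproteasome fell. Psmb8 was at 272, 321 and 336 CPM in young A, B and C and at 226, 141 and 200.5 CPM in aged A, B and C. The groups did not overlap, and aged B was lowest. Psmb8 fell from 309 ± 33.5 to 189 ± 43.6 CPM (SD, n = 3), 1.64-fold, with a log2 fold change of -0.71 (SE 0.20, adjusted p = 0.0371 by edgeR, and 0.0287 to 0.141 with 1 sample left out). It stayed under 0.05 without young A or aged A.

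Psmb9 changed most among the members. It was at 54.4, 99.9 and 88.6 CPM in young A, B and C and at 41.3, 27.1 and 44.2 CPM in aged A, B and C. Young A lay far below the other young samples but above every aged one. Psmb9 fell from 81.0 ± 23.7 to 37.5 ± 9.16 CPM (SD, n = 3), 2.16-fold, with a log2 fold change of -1.11 (SE 0.26, adjusted p = 0.0197 by edgeR). The edgeR adjusted p ran from 0.0044 without young A to 0.0904 without young C, and stayed under 0.05 without aged A or aged B.

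Psmb10 was at 115, 135 and 135 CPM in young A, B and C and at 103, 60.7 and 81.6 CPM in aged A, B and C. Aged A came nearest to the young samples. Psmb10 fell from 129 ± 11.5 to 81.8 ± 21.1 CPM (SD, n = 3), 1.57-fold, with a log2 fold change of -0.65 (SE 0.20, adjusted p = 0.0492 by edgeR). This was close to the threshold, and the edgeR adjusted p was 0.0535 with DESeq2 size factors, 0.0617 without the filter on low counts, and 0.0289 to 0.162 with 1 sample left out, staying under 0.05 without young A or aged A.

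**Figure D3:**
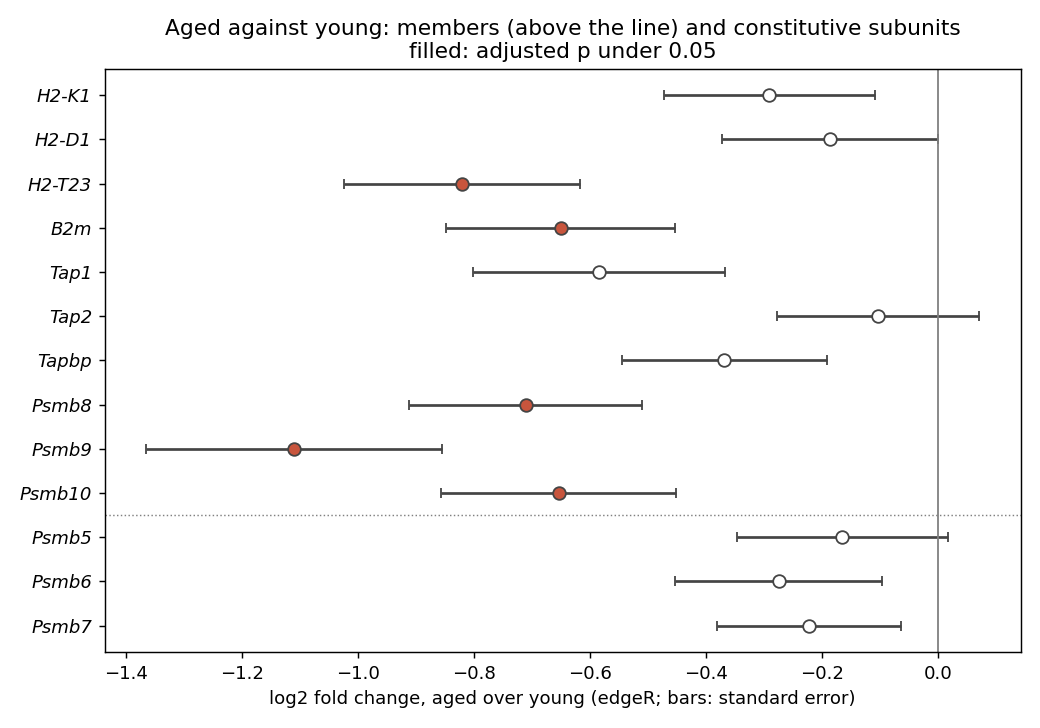
Log2 fold change of aged over young (edgeR, bars give the standard error) for the 10 members and, below the dotted line, the 3 constitutive subunits, with filled points at an adjusted p under 0.05. Every point is left of 0, from Psmb9 at -1.11 to Tap2 at -0.10, and the constitutive subunits lie between -0.27 and -0.16.

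The constitutive partners were lower in mean without passing the test. Psmb5 was at 173 ± 32.0 CPM in young samples against 154 ± 15.8 CPM at the older age (SD, n = 3), with a log2 fold change of -0.16 (SE 0.18, adjusted p = 0.555 by edgeR). Psmb6 had a log2 fold change of -0.27 (SE 0.18, adjusted p = 0.3003 by edgeR) and Psmb7 of -0.22 (SE 0.16, adjusted p = 0.3499 by edgeR). Young and aged values overlapped in all 3.

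Within each sample, the ratio of Psmb8 to Psmb5 counts was 1.52, 2.32 and 1.67 in young A, B and C and 1.32, 0.929 and 1.44 in aged A, B and C. Every aged ratio was below every young one, by 0.669 times on average (log2 difference -0.58, SE 0.27). Psmb10 to Psmb7 was 1.16, 1.45 and 1.21 in young and 1.07, 0.715 and 1.03 in aged A, B and C. This ratio did not overlap either (log2 difference -0.46, SE 0.21). Psmb9 to Psmb6 was 0.228, 0.498 and 0.336 in young and 0.184, 0.158 and 0.238 in aged A, B and C, where aged C lay above young A (log2 difference -0.82, SE 0.37). Two-sided exact permutation p-values were 0.1, 0.1 and 0.2 for Psmb8/Psmb5, Psmb10/Psmb7 and Psmb9/Psmb6, and 0.15, 0.15 and 0.2 when adjusted over the 3 ratios. The smallest p this design allows is 0.1.

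Of the members, 8 lie on chromosome 17 within 2.12 megabases, and B2m (chr2:122147686-122153083) and Psmb10 (chr8:105935735-105938444) lie elsewhere (mm10 coordinates of the count table). Psmb9 (chr17:34181987-34187764), Tap1 (chr17:34187553-34197225), Psmb8 (chr17:34197721-34201454) and Tap2 (chr17:34203527-34216321) stand side by side in 34335 bases. Along this run of neighbours the log2 fold changes were -1.11, -0.58, -0.71 and -0.10. Psmb9 and Tap1 point away from each other, with RefSeq start sites 226 bases apart, and their gene models overlap by 212 bases on opposite strands. Psmb9 counts per Tap1 count were 1.63, 1.88 and 1.97 in young and 1.26, 1.19 and 1.38 in aged A, B and C. Psmb8 counts per Tap2 count were 5.43, 5.42 and 5.77 in young and 3.71, 3.26 and 3.88 in aged A, B and C. Neither ratio overlapped between the ages. Both pairs were chosen after their values were seen and were not tested, and reads in the overlap of Psmb9 and Tap1 cannot be told apart without strand.

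Levels were compared between genes only per length, in TPM, a share of all transcripts, computed with the longest annotated transcript. In young samples B2m was highest at 10728 ± 229 TPM (SD, n = 3), followed by H2-D1 at 5344 ± 149, H2-K1 at 2298 ± 72.7, Psmb8 at 318 ± 25.8 and H2-T23 at 257 ± 29.7 TPM. Tapbp at 249 ± 6.88, Psmb10 at 193 ± 15.8, Psmb9 at 55.0 ± 15.9, Tap2 at 31.9 ± 2.80 and Tap1 at 22.0 ± 5.17 TPM came after. Among neighbours in this order, the sample values of H2-T23 and Tapbp overlapped and no other pair did.

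In aged samples B2m was at 6410 ± 872, H2-D1 at 4419 ± 252 and H2-K1 at 1764 ± 153 TPM (SD, n = 3). The next were Psmb8 at 182 ± 35.3, Tapbp at 181 ± 25.8, H2-T23 at 136 ± 22.7 and Psmb10 at 115 ± 26.1 TPM. The last were Tap2 at 27.8 ± 3.85, Psmb9 at 23.9 ± 4.81 and Tap1 at 13.7 ± 2.02 TPM. By this length Tapbp stood above H2-T23, and Tap2 above Psmb9, which was not the young order. Neighbours whose aged samples overlapped were Psmb8 and Tapbp, H2-T23 and Psmb10, and Tap2 and Psmb9. These places depend on the length used. With the median transcript length, Tapbp stood above H2-T23 and Tap2 above Psmb9 in both ages (in young samples 609 against 218 TPM, and 159 against 111 TPM), and H2-D1 was at 10968 TPM and B2m at 5875 TPM in young samples.

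Other proteasome genes were read from the same fit. Of the 11 other subunits of the 20S core, 0 passed the edgeR test (adjusted p under 0.05), with 1 lower and 0 higher at an unadjusted p under 0.05. All 11 log2 fold changes were negative (median -0.31), from Psma4 at -0.43 (adjusted p = 0.0794 by edgeR) to Psmb2 at -0.16 (0.532). Of 9 genes of the PA28 activator, which opens the core, and of proteasome assembly, 2 fell and 0 rose (median -0.44). The assembly chaperone Psmg1 fell from 14.9 ± 2.27 to 8.51 ± 0.577 CPM (SD, n = 3, log2 fold change -0.81, SE 0.20, adjusted p = 0.0266 by edgeR). The other, Psmg4, named after its values were seen, went from 7.85 ± 0.578 to 3.90 ± 0.583 CPM (SD, n = 3, adjusted p = 0.0225 by edgeR). Psme3 was the highest of that list among genes at 10 CPM or more, at a log2 fold change of 0.22 (adjusted p = 0.4503 by edgeR).

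Of 8 genes of peptide trimming and loading outside the members, 3 rose, 0 fell and 5 did not pass the test, with a median log2 fold change of 0.53. Sec61a1, a channel subunit of the endoplasmic reticulum, rose from 114 ± 8.63 to 274 ± 11.0 CPM (SD, n = 3, log2 fold change 1.26, SE 0.15, adjusted p = 0.00202 by edgeR), and its call held with each sample left out. The aminopeptidase Lnpep (1.08, adjusted p = 0.00878 by edgeR) and the chaperone Hspa5 (1.10, adjusted p = 0.0484 by edgeR) were the other two that rose, named after their values were seen. The call of Hspa5 held in 1 of the 6 edgeR fits that each left out a sample (adjusted p up to 0.159), and its ages overlapped, since aged A at 4924 CPM lay below young C at 5180 CPM. Lnpep kept its call in 5 of those 6 fits. Most of these genes serve protein folding or transport in general and are not particular to class I. Tapbpl, a relative of tapasin, was lowest at a log2 fold change of -0.80 (adjusted p = 0.0556 by edgeR).

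Of 17 other class I and class I-like heavy chains listed, 11 were tested, 2 fell and 0 rose (median log2 fold change -0.47). H2-T22 fell from 37.0 ± 9.50 to 17.8 ± 4.40 CPM (SD, n = 3, log2 fold change -1.05, SE 0.24, adjusted p = 0.0194 by edgeR). H2-T24, named after its values were seen, had a log2 fold change of -1.10 (adjusted p = 0.0304 by edgeR). Both are non-classical genes of the T region, as is H2-T23. Fcgrt, the neonatal Fc receptor, was highest among those at 10 CPM or more, at -0.39 (adjusted p = 0.484 by edgeR).

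Regulators of class I genes were split. Of 12, 2 fell and 2 rose, with a median log2 fold change of -0.03. Stat2, a transcription factor of interferon signalling, fell from 14.5 ± 2.81 to 8.72 ± 0.788 CPM (SD, n = 3, log2 fold change -0.73, SE 0.22, adjusted p = 0.0437 by edgeR), and its call held in 1 of the 6 fits that each left out a sample. The NF-kappa B subunits rose, Nfkb1 from 21.1 ± 2.63 to 56.1 ± 8.59 CPM (log2 fold change 1.41, adjusted p = 0.00242 by edgeR) and Rela from 96.4 ± 8.15 to 185 ± 22.8 CPM (log2 fold change 0.94, adjusted p = 0.00828 by edgeR). Nlrc5, the class I transactivator, was scarce in both ages, with 2.42 ± 0.595 CPM in young ones and 3.00 ± 0.837 CPM in aged ones (SD, n = 3, adjusted p = 0.576 by edgeR), and no difference was detectable at this depth.

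Of 9 genes of interferon receptors, Janus kinases and their inhibitors, 5 rose and 0 fell (median log2 fold change 0.64). Jak2 rose from 21.1 ± 3.47 to 62.5 ± 8.40 CPM (SD, n = 3, log2 fold change 1.57, SE 0.19, adjusted p = 0.00195 by edgeR). The receptor chains Ifngr2 (0.83, adjusted p = 0.0208 by edgeR) and Ifnar1 (0.64, adjusted p = 0.0267 by edgeR) rose, as did the signalling inhibitors Socs1 (1.65, adjusted p = 0.0172 by edgeR) and Socs3 (1.73, adjusted p = 0.00898 by edgeR). Ifnar2 was lowest at 0.11 (adjusted p = 0.6698 by edgeR).

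Other interferon-induced genes were set beside the members. Of 18 genes of the type I interferon response 16 fell and 0 rose (median log2 fold change -1.30), and those at 10 CPM or more ran from Ifit3 at -2.36 (adjusted p = 0.00709 by edgeR) to Rsad2 at -0.70 (adjusted p = 0.107 by edgeR). Of 16 other genes of the interferon-gamma response 7 fell and 1 rose (median -1.03). Igtp was the lowest of those at 10 CPM or more, at -1.39 (adjusted p = 0.0331 by edgeR), and Cd274, which encodes the inhibitory ligand PD-L1, was the 1 that rose (1.23, adjusted p = 0.0122 by edgeR). Of 9 genes of MHC class II presentation, the route for peptides from outside the cell, 0 passed the edgeR test in either direction, and 0 had an unadjusted p under 0.05. Their median log2 fold change was -0.42, from H2-DMa at -0.54 (adjusted p = 0.179 by edgeR) to Cd74 at -0.21 among those at 10 CPM or more (adjusted p = 0.6986 by edgeR). Young A was the highest sample for H2-Aa, H2-Ab1, H2-Eb1 and Cd74. H2-Aa was at 5358 CPM there, against 2301 and 2137 CPM in young B and C. With 1 sample left out, the log2 fold changes of these genes reached 0.12, 0.0028, 0.09 and 0.27, while H2-DMa and H2-DMb1 stayed below 0. The difference between these lists was not tested.

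These list counts changed with the samples in the edgeR fit. The 16 type I interferon genes that fell became 15 without young A, 14 without aged C, 9 without aged A, 7 without aged B, 3 without young B and 1 without young C. The interferon-gamma genes that fell, 7 with all samples, numbered 7, 5, 2, 2, 1 and 0 without young A, aged B, aged A, aged C, young B and young C in turn. Of the receptor and kinase genes 5 rose without young A or aged B, 4 without aged A, 2 without aged C, 2 without young B and 1 without young C. Of the trimming and loading genes 3 rose without aged A, 1 without young C and 2 in each of the other fits. In that list 1 gene fell without young A and 0 in the other fits. The regulators that fell numbered 3 without young A, 0 without young C and 1 in each of the other four fits, and those that rose numbered 1 without young C and otherwise 2. Of the activator and assembly genes 2 fell without young A, 1 without aged A or aged B and 0 without aged C, young B or young C. Among the other 20S core subunits 1 fell without young A and 0 in the other fits. The other heavy chains that fell numbered 5 without young A, 3 without aged C, 2 without aged B, 1 without aged A and 0 without young B or young C. In that list 1 gene rose without aged B and 0 in the other fits.

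**Figure D4:**
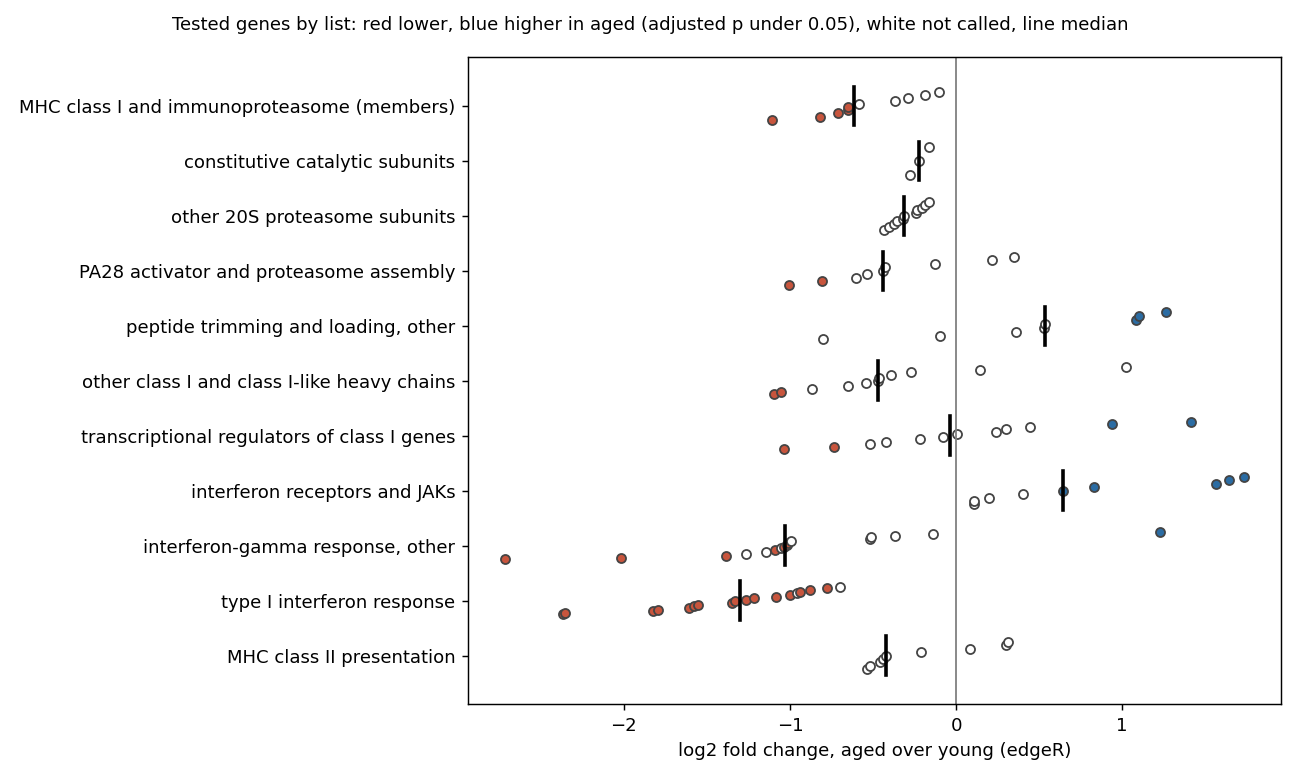
Log2 fold change of aged over young (edgeR) for each tested gene of the members and of 10 related lists, with red points lower and blue points higher at an adjusted p under 0.05, white points not called, and a vertical line at each list's median. The members' median of -0.62 lies between those of the 20S core (-0.31) and the type I interferon response (-1.30), and the receptor list lies to the right of 0.

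The genes whose level followed the members most closely were found by Pearson's r between their log2 CPM and the mean standardised level of the 10 members over the 6 samples, among 6578 genes at 10 CPM or more. They were Tmem219 (0.996), BC028528 (0.992), Drap1 (0.989), Lias (0.988) and Ddrgk1 (0.988). The 6 samples fall into 2 ages, so r here contains the difference between ages, and the values are a description. Tmem219 was at 67.0, 89.5 and 92.9 CPM in young A, B and C and at 60.8, 38.7 and 55.3 CPM in aged A, B and C. It had the same extremes as the members, with young A the lowest young sample and aged B the lowest of all.

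Genes of the sort were present in both ages, with Ptprc, Itgam, Adgre1 and Fcgr1 each above 200 CPM on average. Itgam rose (log2 fold change 0.99, adjusted p = 0.00735 by edgeR), and its call held with each sample left out. Adgre1 fell (-0.69, adjusted p = 0.0292 by edgeR), and its call held in 2 of those 6 fits (without young A and without aged B, adjusted p up to 0.113 in the others). The 8 macrophage and sort markers summed to 27966 to 43048 CPM in young and 20174 to 25536 CPM in aged samples, with no overlap. Lyz2, an abundant macrophage lysozyme, made up most of each sum, at 24157 to 38843 CPM in young and 16240 to 21389 CPM in aged samples. The sums therefore mainly describe that gene. Of the 8 markers 1 rose and 1 fell, and 4 log2 fold changes were below 0 and 4 above. Lyz2 (log2 fold change -0.68, adjusted p = 0.0753 by edgeR) and the macrophage marker Cd68 (-0.41, adjusted p = 0.121 by edgeR) did not pass the test. Both were lower in every aged sample than in any young one. Fcgr1 went the other way, at 422 to 467 CPM in young and 486 to 514 CPM in aged samples (0.15, adjusted p = 0.52 by edgeR). Ptprc (0.26) and Csf1r (0.12) were also above 0 and Mertk (-0.72) below 0, none passing the test. The part of these marker differences in the members' differences was not tested. Ly6g means were 8.15 ± 2.47 (young) and 8.43 ± 1.95 CPM (aged) (SD, n = 3). Since all nucleated cells can express class I, other cell types were also measured, as summed CPM over marker lists. Of 7 mast cell and erythroid markers, 2 fell (Hba-a1 and Hbb-bs), against 4 without aged A, 3 without young A, 2 without aged B and 0 without young B, young C or aged C. The 7 together summed to 173 to 372 CPM in young and 79.2 to 108 CPM in aged samples, with no overlap. Per the paper, the sort did not gate out Ly6G+ cells, and a minor neutrophil spillover may be present. Of 12 neutrophil markers detected, 4 rose and 0 fell, with sums of 717 to 1217 CPM in young and 926 to 1582 CPM in aged samples. Without aged B 5 of them rose, without young B 2, and without young C 0. Without young A, aged A or aged C 1 rose, and 1 fell without young A. The 5 monocyte markers summed to 1159 to 2813 and 2702 to 3740 CPM, and the 8 dendritic cell markers to 18.1 to 58.9 and 32.7 to 96.2 CPM. Chil3 made up most of each monocyte sum, at 642 to 1993 CPM in young and 1904 to 2810 CPM in aged samples. Of the 5 monocyte markers 0 passed the edgeR test, with 3 log2 fold changes below 0 and 2 above. Without aged B 1 of these 5 rose.

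T and NK cell markers were near the detection limit. The 12 of 15 detected summed to 7.07 to 11.2 CPM in young and 3.46 to 14.4 CPM in aged samples. Of the 4 tested, 1 fell (Cd4, whose call held in 1 of the 6 edgeR fits with a sample left out, adjusted p up to 0.137) and 0 rose, with 2 log2 fold changes below and 2 above 0. Gzmb (1.13, adjusted p = 0.4097 by edgeR) and Trac (0.91, adjusted p = 0.335 by edgeR) had a higher mean in aged samples. Nkg7 was lower in every aged sample than in any young one without passing the test (-1.80, adjusted p = 0.0586 by edgeR). Gzma was at 0 in all 3 aged samples. Ifng had at most 10 counts in any sample. Of the 3 B cell markers detected, 1 fell (Cd79b, a call that held in the edgeR fit without young A and in 0 of the other five, adjusted p up to 0.118), with sums of 4.62 to 12.9 and 2.61 to 4.08 CPM. Aged B, the lowest sample for every member, held 112 CPM of keratinocyte markers against at most 1.96 CPM in the other samples. It also held 139 CPM of fibroblast and endothelial markers against 31.2 to 59.9 CPM in the others. Keratinocyte sums were 0.587 to 0.727 CPM in young and 1.67 to 112 CPM in aged samples. The 1 keratinocyte marker tested rose (log2 fold change 8.29), as did 1 of 6 fibroblast and endothelial markers tested. Both lists had 1 call without aged B, and the keratinocyte list had 0 without young C. Without aged B the members' median log2 fold change was -0.44, with 9 of 10 negative. The part of these cells in the members' differences was not tested.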

How the data were processed

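Bulk RNA from sorted Day 3 wound macrophages was amplified with SMART-Seq v4, which does not mark strand, and sequenced as paired reads. Per the submitters' processing notes, the authors aligned reads with STAR 2.7.3a to mm10 and counted them in Partek on Ensembl transcripts (release 102), and deposited expected counts per gene without normalisation. Genes totalled at least 10 over the 6 samples. A design written for raw counts was kept, and the deposited expected counts were rounded to whole numbers. Totals were 15270103 to 17927483 per sample. A second deposited table with the authors' own DESeq2 comparison and normalised values, and a text file of run details, were not used for values.

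R 4.3.3 and edgeR 4.0.16 were used, with TMM scaling, filterByExpr and the quasi-likelihood test for age, adjusted over 11878 genes by Benjamini-Hochberg. CPM values use TMM-scaled library sizes. Standard errors of edgeR log2 fold changes were derived from the test, as the absolute log2 fold change over the square root of its F statistic. Count ratios were compared by exact permutation. TPM used GENCODE M21 lengths. Gene ends are 1 base below the deposited stop, which lay 1 base past the annotated end for 99.2% of matched genes. Alternatives were DESeq2 1.42.0, limma-voom (limma 3.58.1) with sample quality weights, other scalings and filters, the set letter as a block, and each sample left out. Scripts were tested on simulated data. Within an age, every pair of samples differed beyond sampling noise. Python 3.11.15 drew the plots. The members and lists were chosen with earlier results of these data known. Genes named are the members, the constitutive subunits, the sort genes and Ly6g, the highest and lowest gene of each list at 10 CPM or more, called regulators and receptors (1 called regulator is not reported here), and the 5 most alike genes. Any other gene named, cell type markers included, was chosen after its values were seen.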

Additional observations from a re-analysis of the deposited data

How the results depend on the processing

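The count of 5 members lower in aged was 4 with DESeq2 size factors in edgeR, 4 with the set letter as a replicate block, 5 with DESeq2, 5 with at least 10 counts in every sample, 6 at an adjusted p under 0.1 and 7 with limma-voom with sample quality weights. It was 3 without the filter on low counts and 1 when more than 2-fold was also required. Leaving out 1 sample at a time it ran from 0 to 5. No alternative called a member higher. Calls over all genes numbered 2103, against 3646 with limma-voom with sample quality weights and 218 (without young C) to 2702 (without young A) with 1 sample left out. What samples of the same set letter share is not given in the sources used here. Their deviations correlated at 0.18, -0.02 and 0.11 for A, B and C, not all over 0.1, so the samples were not treated as paired, and the block gave 2114 calls. B2m was lost without the filter (adjusted p = 0.0504), and Psmb10 with the block (edgeR adjusted p = 0.0565).

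The median log2 fold change of the members stayed between -0.69 and -0.44 over all alternatives. The log2 fold change of Tap2 ran from -0.23 (without aged A) to 0.025 (without aged B). The 6 count ratios kept their direction with 0.5 added to each count and with each sample left out (the replicate block gives the same mean difference by construction). With 1 sample left out, log2 differences were -0.70 to -0.39 for Psmb8/Psmb5, -1.10 to -0.54 for Psmb9/Psmb6, -0.56 to -0.28 for Psmb10/Psmb7, 0.33 to 0.41 for H2-K1/B2m, 0.43 to 0.57 for H2-D1/B2m and -0.28 to -0.09 for H2-T23/B2m. The cause of these shifts was not tested. The 3 samples per age limit the calls, and leaving 1 out leaves an age with 2.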
